A study of Arabidopsis thaliana with 6 samples.

Results

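The nuclear genes of the photosystems and their antennae were followed as a set of 46 Arabidopsis thaliana loci out of 33557 in the deposited table. They were taken by locus identifier, as a list made with earlier results of these data known: 21 genes for light-harvesting proteins (LHCB and LHCA), 22 genes for photosystem subunits (12 PSA and 10 PSB genes) and 3 genes for photoprotective relatives of the antenna (PSBS, ELIP1 and ELIP2). All 46 were found, and 45 passed the filter of 1 FPKM in at least 1 genotype. ELIP2, at 0.421 FPKM in wild-type shoots and 0.607 in mutant shoots, did not.

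The 2 genotypes were the Col-0 wild type and the quadruple mutant camta1/2/3/sid2, named by its mutated genes without alleles. The CAMTA genes encode transcription factors that bind calmodulin, and SID2 encodes the isochorismate synthase ICS1 of salicylic acid synthesis. Both genotypes were Col-0 plants grown in soil at 22 °C with 12 h of light (100 to 120 µmol m-2 s-1), and whole shoots were harvested 21 days after germination at zeitgeber time 12, when the lights go off. The labels list 3 libraries per genotype, but the table holds 1 FPKM value per genotype, that is, fragments scaled to transcript length and mapped fragments. No difference below therefore has a replicate error or a test, and depth is unknown. A sid2 mutant with intact CAMTA genes is not analysed here, so the mutated genes' contributions cannot be told apart.

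Photosystem II splits water and photosystem I reduces ferredoxin, and both are fed by chlorophyll-binding antenna proteins encoded in the nucleus. LHCB1, LHCB2 and LHCB3 form the LHCII trimers, LHCB4 to LHCB6 are the monomeric antenna that link trimers to photosystem II, and LHCA1 to LHCA4 form a belt around photosystem I. The reaction centre proteins are encoded in the chloroplast, while the nucleus supplies the PSA and PSB subunits considered here. LHCB transcription is known to follow light and the circadian clock, and its messenger RNAs are among the most abundant in leaves.

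The table was first checked for the targeted genes and for tissue markers. CAMTA1 was 13.6 FPKM in Col-0 and 3.30 in the quadruple mutant, CAMTA3 9.94 and 2.68, CAMTA2 9.25 and 6.32, and ICS1 4.56 and 3.73. Of 8 root markers 4 were listed at 0 in both genotypes, and their sum was 52.6 FPKM in wild-type plants and 57.5 in mutant plants, nearly all of it PYK10. The 5 flower markers were all under the filter. The 4 leaf mesophyll markers (CA1, CA2, RCA and HCEF1) were higher in the mutant, with sums of 6788 and 10824 FPKM. CA1 was 3603 and 5970, and RCA 1944 and 3121. The 5 markers of other shoot cells summed to 156 and 132, and most of this was SUC2 (121 and 102). All 5 were lower, but TMM (13.8 and 13.5) and FAMA (13.0 and 12.7) differed little. STM was 4.67 and 2.37, and GL1 3.24 and 2.09. In whole shoots a different number of cells of a type and a different amount of RNA per cell cannot be told apart, and the part of tissue make-up in the results below was not tested.

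The photosystem genes made up 11.6% of the summed FPKM of the table in wild-type shoots and 9.92% in mutant shoots. Among the 50 loci with the highest FPKM, 22 were photosystem genes in Col-0 and 20 in the quadruple mutant. LHCB1.3 had the highest FPKM of the whole table in wild-type plants and the third highest in mutant plants. Across the 45 analysed genes, 33 were lower and 12 higher in the mutant, where 64.6% of all analysed loci were lower. Differences are given as the log2 ratio, the mutant minus the wild type on the scale of log2(FPKM + 1), and folds are plain ratios of FPKM. The median log2 ratio was -0.28 over the 45 genes and -0.06 over all 18547 analysed loci.

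**Figure D1:**
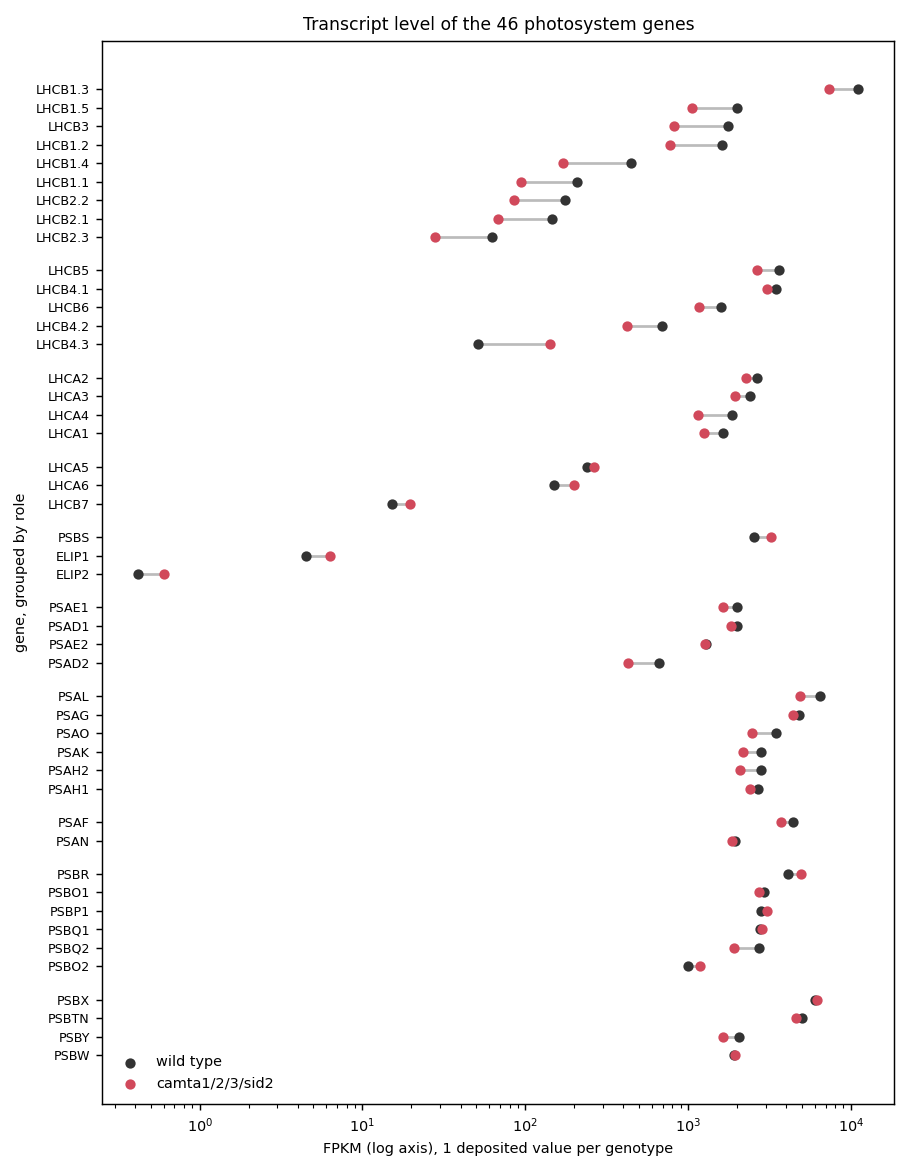
FPKM of the 46 genes on a log axis, with black points for the wild type and red points for camta1/2/3/sid2, 1 deposited value each, and genes grouped by role. All 9 LHCII trimer genes stand to the left of their wild-type point, while LHCB4.3 moves from 51.3 to 143 FPKM.

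A difference of 1.5-fold or more was counted on the same log2 scale. Of the 45 genes, 12 (26.7%) were at least 1.5-fold lower in the mutant, where the background over all analysed loci was 1.99%. One gene, LHCB4.3, was at least 1.5-fold higher, which is 2.22% of the 45 against a background of 1.81%. At 2-fold the counts were 7 lower and 1 higher, with backgrounds of 0.69% and 0.787%. Just inside the 1.5-fold mark lay LHCB1.3 and PSAD2, at log2 ratios of -0.59 and -0.63, and just outside it PSBQ2 and PSAO, at -0.51 and -0.48. Because most of these genes are very abundant, they were also set beside the 1501 loci with at least 100 FPKM in 1 genotype, whose median log2 ratio was 0.01. Of those loci, 3.2% were at least 1.5-fold lower and 2.66% at least 1.5-fold higher. The photosystem genes contributed 11 of the 48 lower loci, and 6 of the 13 loci that were at least 2-fold lower. Among these 6, LHCB1.1, LHCB2.1 and LHCB2.2 reached 100 FPKM only in the wild type. For them a place among the lower loci is partly built in by the filter.

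**Figure D2:**
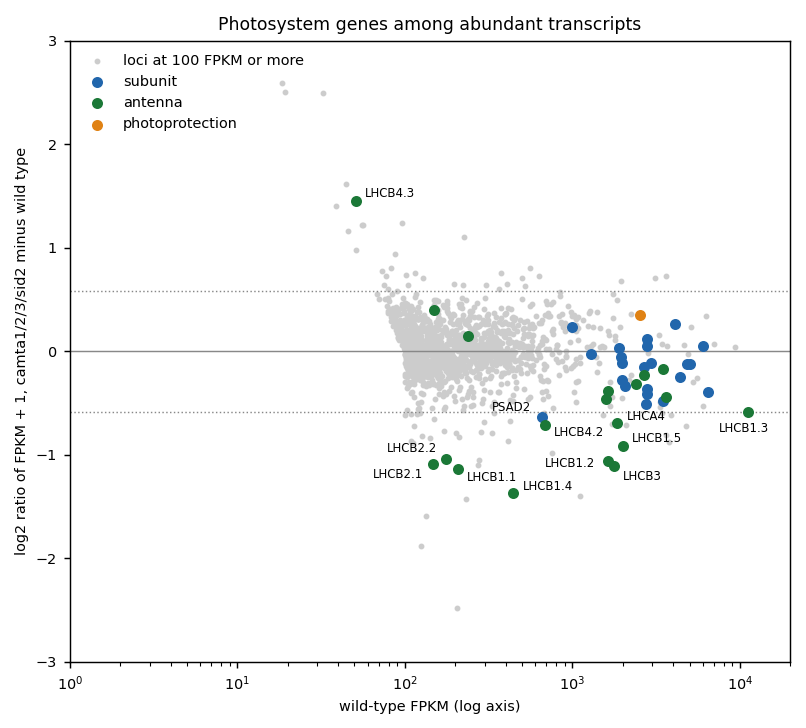
Log2 ratio of FPKM + 1 (mutant minus wild type) against wild-type FPKM on a log axis for the loci with at least 100 FPKM in 1 genotype (grey), with antenna genes in green, subunit genes in blue and PSBS in orange. Dotted lines mark 1.5-fold, 5 loci lie outside the axes, and the named genes are those at or past 1.5-fold: 10 antenna genes and PSAD2 lie below the lower line and LHCB4.3 above the upper one.

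The LHCII trimer genes had the lowest ratios of all the roles. LHCB1 and LHCB2 are the main trimer proteins and LHCB3 is the third, found in trimers close to the photosystem II core. LHCB1.3 (AT1G29930), which carried most of the LHCB1 transcript, was 11112 FPKM in wild-type shoots and 7379 in mutant shoots. LHCB1.5 (AT2G34420) was 1996 and 1057, and LHCB1.2 (AT1G29910) was 1623 and 775. The mutant value was the lower one for each, by 1.51-fold, 1.89-fold and 2.09-fold. LHCB1.4 (AT2G34430), at 445 and 171 FPKM, had the lowest log2 ratio of the 45 genes, -1.37, and the 6th lowest among the 1501 abundant loci. LHCB1.1 (AT1G29920) was 207 and 93.7 FPKM. LHCB3 (AT5G54270), a gene with no second copy among the members, was 1760 and 815, or 2.16-fold lower.

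The LHCB2 genes were far less abundant and lower to nearly the same degree as one another. LHCB2.2 (AT2G05070) was 176 FPKM in Col-0 and 85.0 in the quadruple mutant, LHCB2.1 (AT2G05100) 146 and 68.3, and LHCB2.3 (AT3G27690) 62.6 and 27.7. Their folds lay between 2.07 and 2.26 lower. Over the 9 trimer genes the log2 ratio ranged from -1.37 to -0.59, with a median of -1.09, and all 9 were at least 1.5-fold lower. Under either other scaling LHCB1.3 was short of 1.5-fold, at -0.53 with the ratios centred on the median of all analysed loci and -0.58 with the FPKM scaled to nuclear loci outside the set, which leaves 8 of 9. Together they summed to 17528 FPKM in wild-type plants and 10472 in mutant plants, or 1.67-fold lower.

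The shares of the LHCB1 copies in their sum changed, while the LHCB2 copies kept nearly the same shares. LHCB1.3 supplied 72.2% of the LHCB1 sum in wild-type plants and 77.9% in mutant plants, because the other 4 copies were lower by more. The shares of LHCB2.1, LHCB2.2 and LHCB2.3 were 38.0%, 45.7% and 16.2% in the wild type and 37.7%, 47.0% and 15.3% in the mutant. LHCB1.1, LHCB1.2 and LHCB1.3 are neighbours on chromosome 1 with coding sequences 95.6% to 96.4% identical. In the RefSeq transcripts, the share of 50-base windows found in no other gene's transcript was 61.4% for LHCB2.3 and 71.8% for LHCB2.2. It was 77.7% for LHCB1.5, 78.0% for LHCB1.3, 79.5% for LHCB1.1 and 79.8% for LHCB2.1. The highest shares were 86.3% for LHCB1.4, 88.5% for LHCB3 and 89.4% for LHCB1.2. LHCB1.3, LHCB1.5, LHCB2.3 and LHCB3 shared windows with loci outside the set (AT1G29940, AT2G34410, AT3G27700 and AT5G54280). The sources used here do not say how the authors divided reads that match several loci. The values of single copies are therefore less certain than the family sums, but summing does not remove sharing with loci outside the family. LHCB1 summed was 1.62-fold lower and LHCB2 summed 2.13-fold lower.

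**Figure D3:**
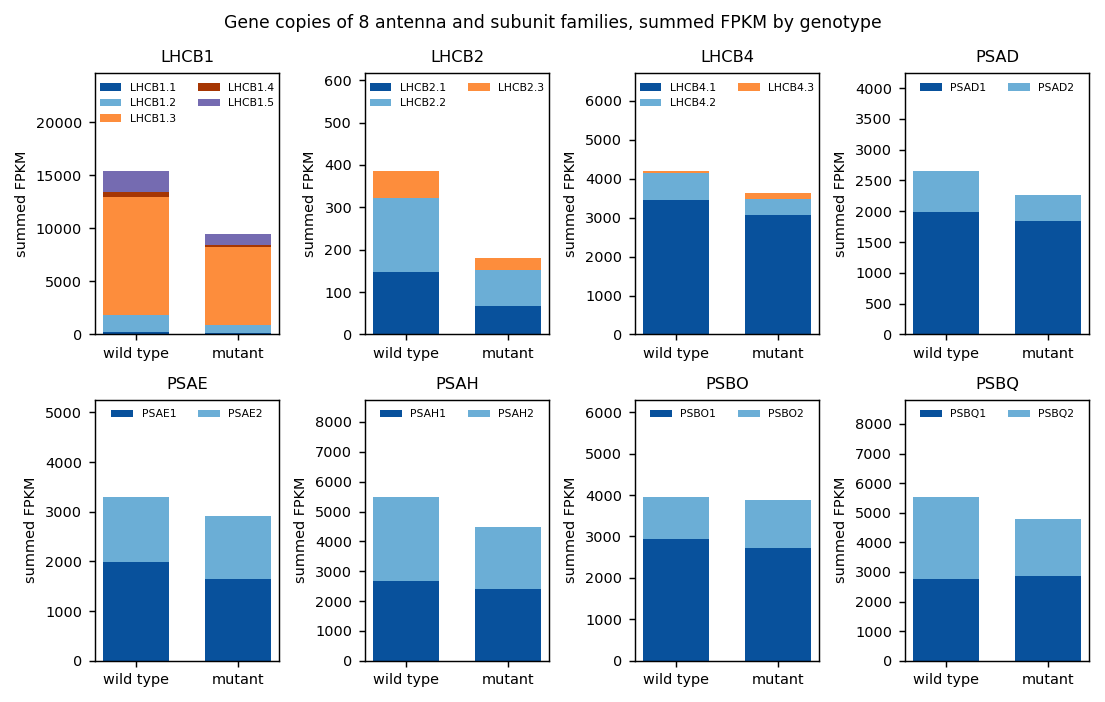
Summed FPKM (bars from 0) of 8 gene families in wild-type shoots and  in mutant shoots camta1/2/3/sid2, divided by gene copy. The LHCB1 bar goes from 15382 to 9476 and the LHCB2 bar from 385 to 181, and the LHCB4.3 piece of the LHCB4 bar is larger in the mutant.

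The monomeric photosystem II antenna was lower by less, and its members differed in direction. LHCB4 (CP29), LHCB5 (CP26) and LHCB6 (CP24) bridge the trimers and the core. LHCB5 (AT4G10340) was 3606 FPKM in Col-0 and 2645 in the quadruple mutant, LHCB6 (AT1G15820) 1591 and 1158, and LHCB4.2 (AT3G08940) 689 and 419. Of these only LHCB4.2 was past 1.5-fold, at 1.65-fold lower. LHCB4.1 (AT5G01530), the most abundant LHCB4 gene, was 3453 and 3063, or 1.13-fold lower. LHCB4.3 (AT2G40100), a stress-responsive LHCB4 form also called LHCB8, was 51.3 FPKM in wild-type plants and 143 in mutant plants. Its log2 ratio of 1.46 was the 10th highest among the 1501 abundant loci. LHCB4.3 entered that set by its mutant value alone, so a high rank there is partly built in. Its share of the LHCB4 sum was 1.22% in wild-type shoots and 3.93% in mutant shoots.

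LHCB4.3 also differs from the other LHCB4 genes in sequence. Its coding sequence has 831 bases, against 873 for LHCB4.1 and 864 for LHCB4.2, and is 72.9% and 74.1% identical to them over aligned bases, while LHCB4.1 and LHCB4.2 are 81.9% identical to each other. A local alignment with LHCB4.3 left the last 68 bases of either LHCB4.1 or LHCB4.2 and the last 26 of LHCB4.3 unaligned. The last 60 coding bases of each gene are shown because the genes differ at this end, from the RefSeq annotation of TAIR10.1, 5′ to 3′, with the stop codon in capitals. All 50-base windows of the 3 transcripts were found in no other gene's transcript.
LHCB4.1 (chr5:210184-210243, plus strand): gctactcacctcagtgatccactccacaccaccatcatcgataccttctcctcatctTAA
LHCB4.2 (chr3:2718606-2718665, plus strand): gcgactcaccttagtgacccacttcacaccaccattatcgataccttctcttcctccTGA
LHCB4.3 (chr2:16747131-16747190, plus strand): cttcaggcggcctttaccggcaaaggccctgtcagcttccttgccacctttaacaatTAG

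The photosystem I belt genes were lower by 1.17-fold to 1.62-fold. LHCA1 and LHCA4 form one heterodimer of the belt, and LHCA2 and LHCA3 the other. LHCA4 (AT3G47470) was 1856 FPKM in Col-0 and 1145 in the quadruple mutant, a 1.62-fold difference and the only one of the 4 past 1.5-fold. LHCA1 (AT3G54890) was 1642 and 1260, LHCA3 (AT1G61520) 2404 and 1932, and LHCA2 (AT3G61470) 2658 and 2268. All 4 were lower, and their median log2 ratio was -0.35. Trimer genes and belt genes barely overlapped: 8 of the 9 trimer genes had a lower log2 ratio than any belt gene, the exception being LHCB1.3. At most 1.99% of all analysed loci lay below every belt gene, since LHCA4 was past 1.5-fold. All of these 8 but LHCB3 are LHCB1 or LHCB2 copies, which share sequence. Summed by family, LHCB1 was 1.62-fold lower, close to LHCA4, and LHCB2 2.13-fold lower.

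The antenna genes LHCA5, LHCA6 and LHCB7 stood on the other side of 0. LHCA5 and LHCA6 are substoichiometric photosystem I antenna proteins that link photosystem I to the chloroplast NDH complex, and LHCB7 is a rare LHCB-like protein. LHCA6 (AT1G19150) was 150 FPKM in wild-type plants and 198 in mutant plants, LHCA5 (AT1G45474) 238 and 265, and LHCB7 (AT1G76570) 15.3 and 19.5. With LHCB4.3, these were the 4 antenna genes of 21 with a higher value in the mutant, and the 3 were higher by 1.11-fold to 1.32-fold, under the 1.5-fold mark. The photoprotective genes had the same direction. PSBS (AT1G44575), which triggers the quenching of excess light energy, was 2541 and 3241 FPKM, and ELIP1 (AT3G22840), an early light-induced protein, was 4.53 and 6.33.

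**Figure D4:**
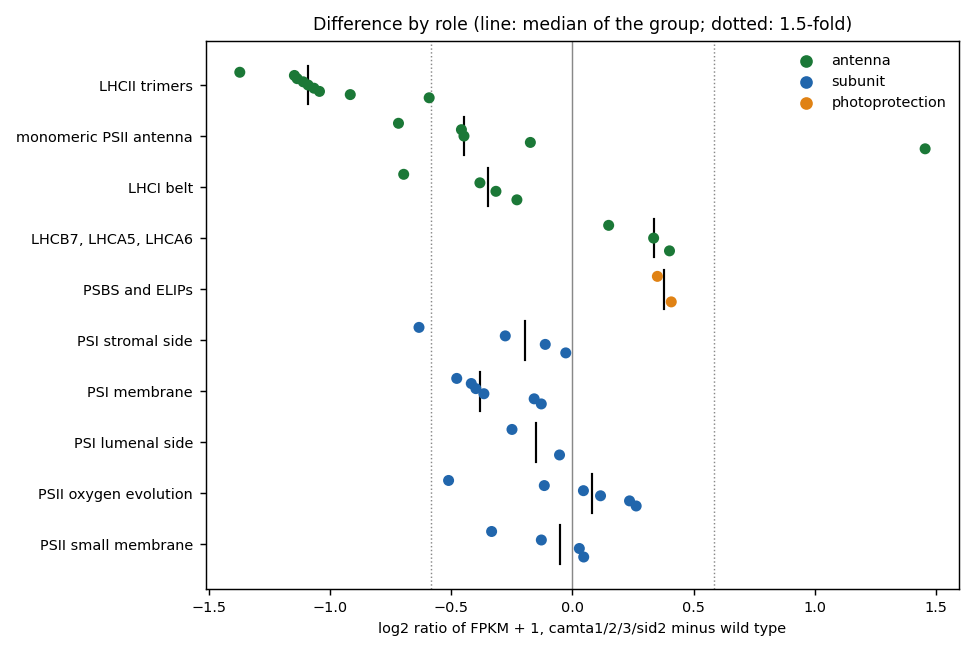
Log2 ratio of FPKM + 1 (camta1/2/3/sid2 minus wild type) of the 45 analysed genes by role, with a black line at each group's median and dotted lines at 1.5-fold. The LHCII trimer genes lie between -1.37 and -0.59, the photosystem I subunits between -0.63 and -0.03, and the photosystem II subunits on both sides of 0, between -0.51 and 0.26.

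The subunit genes of photosystem I were lower by small amounts. PSAD and PSAE form the stromal docking site for ferredoxin. PSAD2 (AT1G03130) was 663 FPKM in wild-type shoots and 427 in mutant shoots, the only subunit gene of 22 past 1.5-fold (not when centred, at -0.57), while its more abundant copy PSAD1 (AT4G02770) was 1989 and 1840. PSAE1 (AT4G28750) was 1990 and 1643, and PSAE2 (AT2G20260) 1296 and 1272. In both pairs the copies differed in size of change, so that PSAD1 supplied 75.0% of the PSAD sum in Col-0 and 81.2% in the quadruple mutant, and PSAE1 60.6% and 56.4% of the PSAE sum.

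The membrane subunits PSAL, PSAO and PSAH lie on the side of photosystem I where LHCII docks in state transitions, and PSAG and PSAK on the side of the antenna belt and its end. PSAL (AT4G12800) was 6412 FPKM in wild-type plants and 4866 in mutant plants, PSAO (AT1G08380) 3451 and 2479, and PSAH2 (AT1G52230) 2785 and 2086. These were lower by 1.32-fold to 1.39-fold, and PSAK (AT1G30380), at 2787 and 2164, by 1.29-fold. PSAG (AT1G55670), at 4797 and 4390, and PSAH1 (AT3G16140), at 2684 and 2407, were lower by 1.09-fold and 1.12-fold. The transcripts of PSAG and PSAH1 overlap annotated neighbours, with 41.2% and 50.8% of their 50-base windows found in no other gene, so reads may have been divided there.

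On the lumenal side, PSAF, which helps dock plastocyanin, and PSAN completed the set. PSAF (AT1G31330) was 4399 FPKM in wild-type shoots and 3701 in mutant shoots, and PSAN (AT5G64040) 1937 and 1868. All 12 photosystem I subunit genes were lower as deposited, with a median log2 ratio of -0.26 and a range of -0.63 to -0.03. With the ratios centred on the median of all analysed loci, PSAE2 and PSAN turned to the higher side and 10 of 12 remained lower.

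The photosystem II subunit genes were divided around 0. PSBO, PSBP and PSBQ are the extrinsic proteins that stabilise the manganese cluster of water oxidation, and PSBR helps to bind them. PSBR (AT1G79040) was 4094 FPKM in Col-0 and 4914 in the quadruple mutant, PSBP1 (AT1G06680) 2799 and 3034, and PSBQ1 (AT4G21280) 2771 and 2861. PSBQ2 (AT4G05180) stood apart at 2743 and 1925, or 1.42-fold lower. PSBO1 (AT5G66570), the main PSBO gene, was 2939 and 2712, while PSBO2 (AT3G50820) was 1001 and 1179. The PSBO copies thus lay on opposite sides of 0 and their sum was nearly equal, at 3940 and 3891 FPKM. PSBQ1 supplied 50.3% of the PSBQ sum in wild-type plants and 59.8% in mutant plants.

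The remaining photosystem II subunit genes had little difference except one. PSBX (AT2G06520) was 6003 FPKM in wild-type shoots and 6201 in mutant shoots, and PSBW (AT2G30570), which stabilises supercomplexes with LHCII, was 1907 and 1945. PSBTN (AT3G21055) was 5036 and 4609. PSBY (AT1G67740) was 2050 and 1627, or 1.26-fold lower. Over the 10 photosystem II subunit genes, 4 were lower and 6 higher (median log2 ratio 0.04), and none was past 1.5-fold.

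Antenna and subunit genes differed as groups. The median log2 ratio was -0.59 over 21 antenna genes and -0.13 over 22 subunit genes. At least 1.5-fold lower were 11 antenna genes (52.4%) and 1 subunit gene (4.55%). The background was 1.99% of all analysed loci and 3.2% of the abundant loci, so the subunit share was near it. Of the 13 antenna genes other than LHCB1 and LHCB2, 3 (23.1%) were at least 1.5-fold lower. The ranges overlapped, with 10 of the 21 antenna genes below every subunit gene. Summed antenna FPKM was 0.539 of the summed subunit FPKM in Col-0 and 0.415 in the quadruple mutant. Without the LHCB1 and LHCB2 copies, which share sequence, the antenna median was -0.32, and with each family summed to 1 value it was -0.38.

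The contrast between antenna and subunits was larger in photosystem II than in photosystem I. In photosystem II the median was -0.92 over 15 antenna genes and 0.04 over 10 subunit genes, and without the LHCB1 and LHCB2 copies, or with each of these families summed, the antenna median was -0.45 or -0.46. The ratio of summed antenna to summed subunit FPKM was 0.859 in wild-type plants and 0.578 in mutant plants. In photosystem I the medians were -0.27 over 6 antenna genes and -0.26 over 12 subunit genes, and the ratio of sums was 0.254 and 0.243. The difference between the photosystems was not tested, since genes are not replicates of a genotype. Between the subunit sets, all 12 photosystem I genes had log2 ratios below the photosystem II median of 0.04. So did at least 64.6% of all analysed loci and 48.8% of the abundant loci, the shares with a ratio below 0. Taking antenna and subunits together, the photosystem II sum was 1.32 times the photosystem I sum in wild-type shoots and 1.35 times in mutant shoots. The summed FPKM of photosystem II subunits was 31343 and 31008, and that of photosystem I subunits 35190 and 29143.

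The upstream sequence of the antenna genes was searched for 7 short motifs, on both strands, in the 300 bases before the annotated gene start (RefSeq, TAIR10.1). The letters CCAATC, a motif linked to the GLK transcription factors that activate antenna genes, were in 10 of 21 antenna genes, 3 of 22 subunit genes and 12.2% of 27443 nuclear promoters. They were in 5 of the 9 LHCII trimer genes and in 7 of the 12 genes that were at least 1.5-fold lower. Within 150 bases of the gene start and in the forward orientation, a window chosen after the positions were seen, CCAATC was in 9 antenna genes, in 0 subunit genes and in 3.82% of all promoters. The stretches around the match nearest the gene start are shown for the 10 antenna genes, 5′ to 3′ on the gene's strand, with the match in capitals and at least 29 and at most 115 bases between it and the gene start. LHCA3 holds the reverse complement. LHCB4.3, LHCB7, LHCA5 and LHCA6, the antenna genes with higher values in the mutant, hold no match in this window, and neither do LHCB1.1, LHCB1.2, LHCB1.4, LHCB3, LHCB5, LHCB6 and LHCA2.
LHCB1.3 (chr1:10477779-10477814, plus strand): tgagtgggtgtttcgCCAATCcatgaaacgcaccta
LHCB1.5 (chr2:14523637-14523672, minus strand): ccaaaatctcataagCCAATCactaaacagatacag
LHCB2.1 (chr2:1824519-1824554, minus strand): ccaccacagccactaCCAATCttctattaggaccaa
LHCB2.2 (chr2:1800505-1800540, minus strand): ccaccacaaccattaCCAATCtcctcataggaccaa
LHCB2.3 (chr3:10255837-10255872, plus strand): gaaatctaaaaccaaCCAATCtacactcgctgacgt
LHCB4.1 (chr5:208816-208851, plus strand): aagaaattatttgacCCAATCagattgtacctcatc
LHCB4.2 (chr3:2717466-2717501, plus strand): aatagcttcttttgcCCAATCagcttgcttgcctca
LHCA1 (chr3:20341277-20341312, minus strand): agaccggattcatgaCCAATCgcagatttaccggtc
LHCA3 (chr1:22699665-22699700, plus strand): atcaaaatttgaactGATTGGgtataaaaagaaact
LHCA4 (chr3:17495061-17495096, minus strand): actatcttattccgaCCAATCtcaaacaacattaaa

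The other motifs were spread over antenna and subunit genes in similar numbers. CGCGT is a sequence bound by CAMTA proteins, and other sequences that they may bind were not searched. It was upstream of 1 of 21 antenna genes (LHCB4.2), 2 of 22 subunit genes (PSAE2 and PSBO1) and 7.89% of all promoters. The G-box CACGTG, bound by light-signalling factors, was in 5 antenna genes, 5 subunit genes and 7.09% of all promoters, and the I-box GATAAG in 4, 5 and 14.5%. The evening element AAAATATCT was in 1 antenna gene, 0 subunit genes and 2.79% of promoters, the CCA1-binding letters AAAAATCT in 3, 2 and 7.94%, and the TATA letters TATAAA in 10, 11 and 52.9%. These matches are descriptions of sequence, and binding was not measured.

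The full 300-base windows are given for genes with at least 100 FPKM in 1 genotype. They are the antenna genes with the lowest and the highest log2 ratio, and the subunit gene with the highest. LHCB4.3 reached 100 FPKM in the mutant only. Capitals mark the CCA1-binding letters in LHCB1.4 and the TATA letters in LHCB4.3, and PSBR held none of the 7 motifs.
LHCB1.4 (chr2:14524307-14524606, plus strand): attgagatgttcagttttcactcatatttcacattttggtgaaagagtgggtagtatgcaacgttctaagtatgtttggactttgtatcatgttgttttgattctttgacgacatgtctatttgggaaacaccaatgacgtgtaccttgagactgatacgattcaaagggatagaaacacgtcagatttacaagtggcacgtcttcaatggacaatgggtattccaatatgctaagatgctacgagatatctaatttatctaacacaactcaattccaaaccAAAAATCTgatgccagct
LHCB4.3 (chr2:16745328-16745627, plus strand): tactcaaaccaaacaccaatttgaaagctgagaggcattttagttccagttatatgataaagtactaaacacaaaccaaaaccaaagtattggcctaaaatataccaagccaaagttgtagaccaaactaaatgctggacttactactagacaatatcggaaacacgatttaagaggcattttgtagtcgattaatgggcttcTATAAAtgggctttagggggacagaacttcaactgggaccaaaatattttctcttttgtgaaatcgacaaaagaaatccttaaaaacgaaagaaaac
PSBR (chr1:29735652-29735951, plus strand): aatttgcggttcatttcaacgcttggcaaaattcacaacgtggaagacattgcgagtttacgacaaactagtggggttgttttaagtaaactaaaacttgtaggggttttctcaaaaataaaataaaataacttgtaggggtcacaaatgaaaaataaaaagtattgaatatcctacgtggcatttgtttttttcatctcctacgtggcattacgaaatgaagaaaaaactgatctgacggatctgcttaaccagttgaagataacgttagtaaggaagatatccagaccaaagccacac

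Other genes of the light reactions were set beside the photosystem genes, from lists made by function. Of 14 genes for electron carriers, the cytochrome b6f complex and ATP synthase, 12 were higher and 2 lower (median log2 ratio 0.21) and none past 1.5-fold. The ferredoxin gene FD1 was 1756 FPKM in Col-0 and 2583 in the quadruple mutant, PGR5, a factor of cyclic electron flow, 123 and 170, and the Rieske protein gene PETC 1248 and 1612. The 6 genes for one- and two-helix antenna relatives (OHP, LIL3 and SEP proteins) were all higher by 1.18-fold to 1.29-fold, with a median of 0.27, with SEP1 at 399 and 513, SEP2 at 108 and 133 and LIL3:2 at 210.4 and 254. The 10 photosystem II assembly and repair genes had 9 higher, with a median of 0.25, among them PPL1 at 180 and 235, PSB28 at 398 and 510 and THF1 at 435 and 541.

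Genes that handle antenna proteins did not share the lower values of the antenna. All 5 genes of the pathway that inserts antenna proteins into the thylakoid were higher by 1.09-fold to 1.21-fold, with CPSRP43, the signal recognition particle subunit that binds them, at 96.3 and 117 FPKM, CPFTSY at 32.2 and 36.7 and CPSRP54 at 75.5 and 85.3. Of 6 genes for antenna kinases, phosphatases and quenching enzymes, 5 were higher, with a median of 0.15. VDE1, the violaxanthin de-epoxidase, was 53.4 and 69.3, the phosphatase gene PBCP 45.3 and 53.2, and the zeaxanthin epoxidase gene ZEP 28.7 and 32.0. The LHCII kinase gene STN7, the one lower gene of the list, was 36.4 and 34.7. The 7 chlorophyll synthesis genes were divided, 3 higher and 4 lower, with a median of -0.01. PORB, a protochlorophyllide reductase, was 560 and 412, and CAO, which makes the chlorophyll b that antenna proteins bind, was 25.4 and 19.6, while CHLI1, a magnesium chelatase subunit gene, was 242 and 262.

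**Figure D5:**
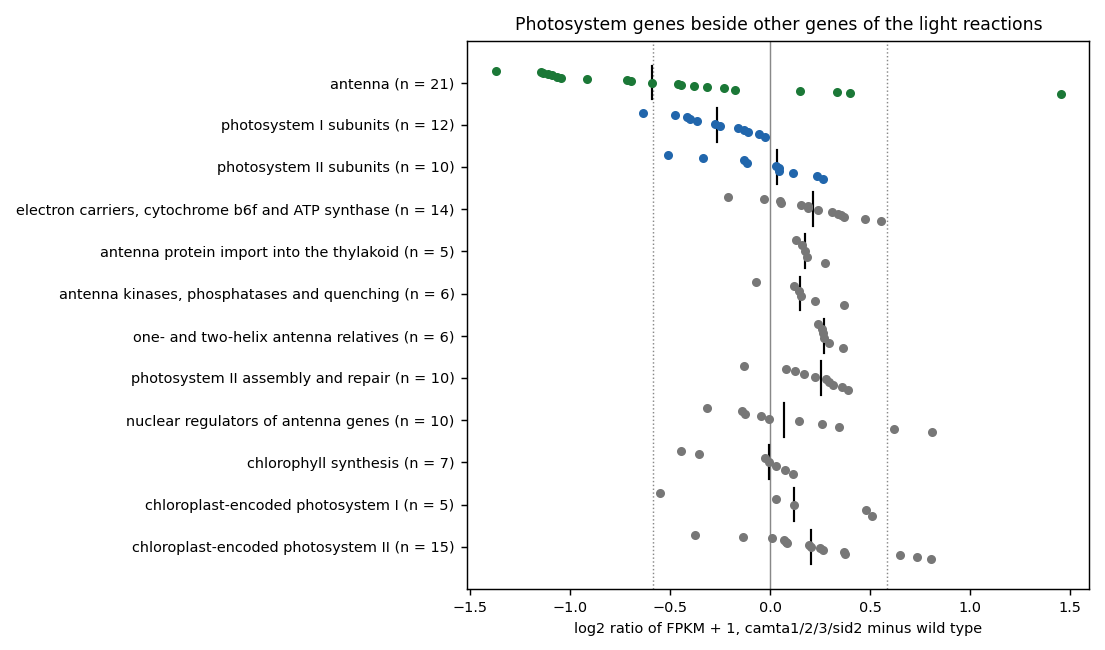
Log2 ratio of FPKM + 1 (camta1/2/3/sid2 minus wild type) for the antenna (green), the subunits (blue) and 9 lists of other genes (grey), with n genes in each, a black line at the median and dotted lines at 1.5-fold. The antenna median is -0.59, while the medians of the electron carrier, assembly, insertion and one- and two-helix lists lie between 0.17 and 0.27.

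Known nuclear regulators of antenna genes went both ways, 5 higher and 5 lower, with a median of 0.07. GLK1 was 130 FPKM in wild-type plants and 117 in mutant plants, and GLK2 30.1 and 29.1. HYH, a relative of the light-signalling factor HY5, was 8.59 and 15.8, and the GATA factor gene CGA1 was 6.98 and 11.3, and both were past 1.5-fold. HY5 itself was 8.96 and 11.6. GUN4, a regulator of chlorophyll synthesis, was 140 and 113, and the clock gene TOC1 was 57.7 and 57.4. The chloroplast-encoded partners were mostly higher, 4 of 5 photosystem I genes and 13 of 15 photosystem II genes, with medians of 0.12 and 0.21. In the photosystem II list psbI (562 and 983 FPKM), psbN (102 and 171) and psbM (408 and 642) were past 1.5-fold. At least 1.5-fold higher were 20% of that list and 20% of the regulators, against a background of 1.81% of all analysed loci. In the photosystem I list psaJ was 121 and 82.3, psaA 4.42 and 6.54 and psaB 6.34 and 9.45. Their FPKM depends on how far the library method retains transcripts of the chloroplast, which the labels do not state.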

How the data were processed

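The labels list 6 RNA-seq libraries, 3 of Col-0 and 3 of camta1/2/3/sid2, while the deposited table holds 1 FPKM value per genotype and locus, computed by the authors, per the file headers. TopHat 1.4.1, Cufflinks 2.1.1 and Cuffdiff with the build TAIR10 are named per the submitters' processing notes. The sources used here do not say how libraries were combined, whether reads were stranded, how long they were or how multiply mapped reads were treated.

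FPKM is no count, so no count model was used, and with 1 value per genotype there is no test, standard deviation or replicate check. Loci with at least 1 FPKM in at least 1 genotype were analysed (18547). The log2 ratio used a pseudocount of 1, which understates differences of low values. Differences of 1.5-fold and 2-fold were counted. Alternatives were pseudocounts of 0.1 and 0.5, no filter, filters of 5 and 100 FPKM, 2 other scalings, and the LHCB1 and LHCB2 copies summed or left out. The calculation was tested on simulated data.

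The members, lists, motifs and the rule for named genes were chosen with earlier results of these data known. The rule named all members and the targeted genes. Of each other list, the tissue markers apart, it named the 3 genes with the largest difference and any past 1.5-fold. Other named list members, and the values of single markers, were added after their values were seen. Gene models and upstream and coding sequences came from RefSeq for TAIR10.1, matched by locus identifier for all 46 members, and coordinates are those of that assembly. Python 3.11.15, numpy 2.4.6, pandas 2.3.3, Biopython 1.88 and matplotlib 3.10.9 were used.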

Additional observations from a re-analysis of the deposited data

How the results depend on the processing

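Each of the 45 single-gene ratios kept its direction and its side of 1.5-fold under both other pseudocounts. A filter only drops loci and cannot change a gene's own ratio, so the filters are no check of single genes. Centred on the median of all analysed loci, a shift of 0.06, LHCB1.3 (-0.53) and PSAD2 (-0.57) went under 1.5-fold, PSAE2 and PSAN changed sign, and the antenna median was -0.53. Scaled to the nuclear loci outside the members, LHCB1.3 and with it the antenna median were -0.58, just short of 1.5-fold. With the LHCB1 and the LHCB2 copies each summed, the antenna median was -0.38, the photosystem II median -0.13 and the antenna minus subunit difference -0.25. Without those copies the values were -0.32, -0.12 and -0.19, against -0.59, -0.45 and -0.46 with every copy counted. The photosystem II antenna median, an alternative added after the data were seen, was -0.46 summed and -0.45 without them, against -0.92. The count of members at least 1.5-fold lower ranged from 10 to 12.

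Over all loci, the counts at least 1.5-fold and 2-fold lower were 370 and 128 and those higher 335 and 146. With a pseudocount of 0.1 they were 574 and 205 lower and 475 and 206 higher, and with a filter of 5 FPKM 249 and 91 lower and 208 and 91 higher. Centring turned the balance at 1.5-fold from 370 lower and 335 higher to 303 lower and 397 higher. With a filter of 100 FPKM the counts were 48 and 13 lower and 40 and 16 higher, since fewer loci enter, and the medians of the regulators and of the chloroplast-encoded photosystem I genes were -0.23 and -0.55 over the few genes left. No paired analysis was possible because the table has 1 column per genotype, and for the same reason no library could be left out. Depth is unknown, so the counting error of the low values, such as those of ELIP2 and LHCB7, could not be given.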
